A study of Mus musculus with 2 samples.

Results

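Spermatids that carried a low share of protamine and transition protein RNA were taken from single-cell RNA sequencing of mouse testis. They were selected on their own counts: Prm1, Prm2, Tnp1 and Tnp2 together made up from 0.3% up to, but not including, 3% of a cell's total. The rule also asked for at least as many counts as the shallowest cell of the young library, at most 25% mitochondrially encoded counts, and less than 0.5% of counts from the 4 Leydig cell genes Cyp17a1, Ptgds, Hsd3b6 and Star. It was met by 209 cells, 142 of them from the aged library and 67 from the young library, of 6950 cells within the depth and mitochondrial limits (4180 aged and 2770 young). The levels of these 4 genes, and any contrast of these cells with cells of a lower or higher share, are therefore a description of the choice.

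The aged library came from testes of mice 24 months old and the young library from testes of mice 2 months old, each captured once on the BD Rhapsody system, which pairs single cells with barcoded beads in microwells. The testes were freed of the tunica albuginea, minced, digested with accutase and strained, and the protocol names no sorting step. The labels give no strain, no treatment and no number of mice per library, and they call the cells stroma cells. With 1 library per age, no difference between ages has a replicate check, and age cannot be told apart from any other difference between the 2 preparations.

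After meiosis, round spermatids build an acrosome over the nucleus, begin a tail and transcribe genes whose RNA is stored for later translation. As the nucleus elongates, histones give way first to transition proteins (Tnp1, Tnp2) and then to protamines (Prm1, Prm2), small basic proteins that pack the DNA of the sperm head, and transcription shuts down. The activator CREM binds cAMP response elements in promoters of several genes of this stage, and transcription of the packaging genes starts well before their proteins are made.

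The promoters of the 4 genes of the rule are shown because the members were chosen by the RNA of these genes together. Tnp1 lies on chromosome 1, and Tnp2, Prm2 and Prm1 lie close together on the minus strand of chromosome 16. Each line gives the 250 bases before the RefSeq transcript start (GRCm38.p6, minus strand: chr1:73015900-73016149 for Tnp1, chr16:10796824-10797073 for Prm1, chr16:10788656-10788905 for Tnp2 and chr16:10792106-10792355 for Prm2). Capitals mark matches to TGANNTCA, 8 letters that read the same on both strands and take in the palindromic cAMP response element.
Tnp1: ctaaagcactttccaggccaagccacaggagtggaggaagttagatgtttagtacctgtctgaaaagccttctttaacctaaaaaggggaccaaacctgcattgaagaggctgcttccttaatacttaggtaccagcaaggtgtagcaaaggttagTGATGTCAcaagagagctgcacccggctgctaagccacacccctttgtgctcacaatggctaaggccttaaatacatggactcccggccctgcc
Prm1: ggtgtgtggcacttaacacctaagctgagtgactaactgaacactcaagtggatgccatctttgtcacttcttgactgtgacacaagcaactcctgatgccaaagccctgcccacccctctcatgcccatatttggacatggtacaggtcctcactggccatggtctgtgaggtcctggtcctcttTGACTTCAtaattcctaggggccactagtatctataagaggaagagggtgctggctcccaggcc
Tnp2: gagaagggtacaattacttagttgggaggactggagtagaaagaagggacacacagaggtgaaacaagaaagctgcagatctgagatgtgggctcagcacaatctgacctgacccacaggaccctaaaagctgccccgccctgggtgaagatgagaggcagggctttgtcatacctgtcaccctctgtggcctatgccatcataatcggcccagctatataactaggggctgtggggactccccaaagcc
Prm2: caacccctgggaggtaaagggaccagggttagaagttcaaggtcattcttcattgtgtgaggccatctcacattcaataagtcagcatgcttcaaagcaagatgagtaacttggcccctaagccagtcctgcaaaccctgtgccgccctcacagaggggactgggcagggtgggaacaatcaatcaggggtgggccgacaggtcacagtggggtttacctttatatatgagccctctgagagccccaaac
One match stood in the Tnp1 window, TGATGTCA, with its first base 94 bases before the start, and one in the Prm1 window, TGACTTCA, 64 bases before the start. Tnp2 and Prm2 held none in these windows. The same letters occur in 3919 of 32851 RefSeq windows of this length (11.9%), the motif was picked after these promoters had been read, and a match is a description of the letters only.

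The libraries differ in ways that touch every comparison. The lowest total of a cell was 186 counts in the aged table and equalled the depth limit in the young table, so that limit removed 38.7% of aged cells and no young cell. Cells at or over the Leydig limit made up 12.8% of aged and 41.8% of young cells within the other limits. These Leydig cells, which should lack the 4 genes, carried their RNA at a median of 0.0220% of counts in the aged library and 0.0613% in the young library, both under the lower limit of 0.3%. Some of them reached that limit, 14 of 535 aged and 33 of 1157 young Leydig cells, with a 99th percentile of 4.16% aged and 0.989% young. The files share 35 cell index numbers, none of them among the members. The shallowest member had 3216 counts in the aged and 3932 in the young library. Members had a median of 15424 counts and 4570 genes in the aged library, against 22168 counts and 5462 genes in the young library.

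Most members carried the markers of the label, and some did not. Acrv1 and Spaca1, which encode proteins of the acrosomal matrix and membrane, together made up a median of 0.241% of counts in aged members and 0.225% in young members. Between 0.05% and 0.1% there was almost no cell (0 aged and 1 young), and this gap set apart 17 aged members (11.97%) and 11 young members (16.4%) that had little or none of either RNA. Each of these cells was then ranked over the marker lists of other cell types only, with the spermatid lists left out. On that ranking, 15 of the aged cells were highest in spermatocyte genes, with 1 cell each for Sertoli and spermatogonial genes. Some of the 15 had equal spermatocyte and spermatogonial sums and were counted under spermatocytes. Of the young ones, 6 were highest in macrophage genes, 3 in Sertoli genes and 2 in spermatocyte genes.

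The macrophage and spermatocyte RNA in the 28 cells below the gap was unlike that of the other members. All 7 macrophage markers were detected in the young cells below the gap. Their sum was 7.79 CPM (counts per 1000000 counts) in the aged cells below the gap and 4265 CPM in the young ones, against 23.4 and 32.4 CPM in the aged and young members above the gap. The spermatocyte markers summed to 2158 CPM in aged and 764 CPM in young cells below the gap, against 346 and 294 CPM above it. The elongating spermatid list, which includes Prm1, Prm2 and Tnp2 of the rule, summed to 14559 CPM aged and 15289 CPM young below the gap. Of its genes outside the rule, Odf1 stood there at 1578 and 999 CPM and Smcp at 1815.5 and 1007.5 CPM. Gapdhs stood at 736 and 705 CPM and Akap4 at 417 and 621 CPM. Scrublet, a doublet caller, marked 10 of the 17 aged and 1 of the 11 young cells below the gap, and 2 of 125 aged and 0 of 56 young members above it. The limit of 0.05% was set after the gap had been seen, and the age comparison is given both for all 209 members and for the 181 above it, 125 aged and 56 young.

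**Figure D1:**
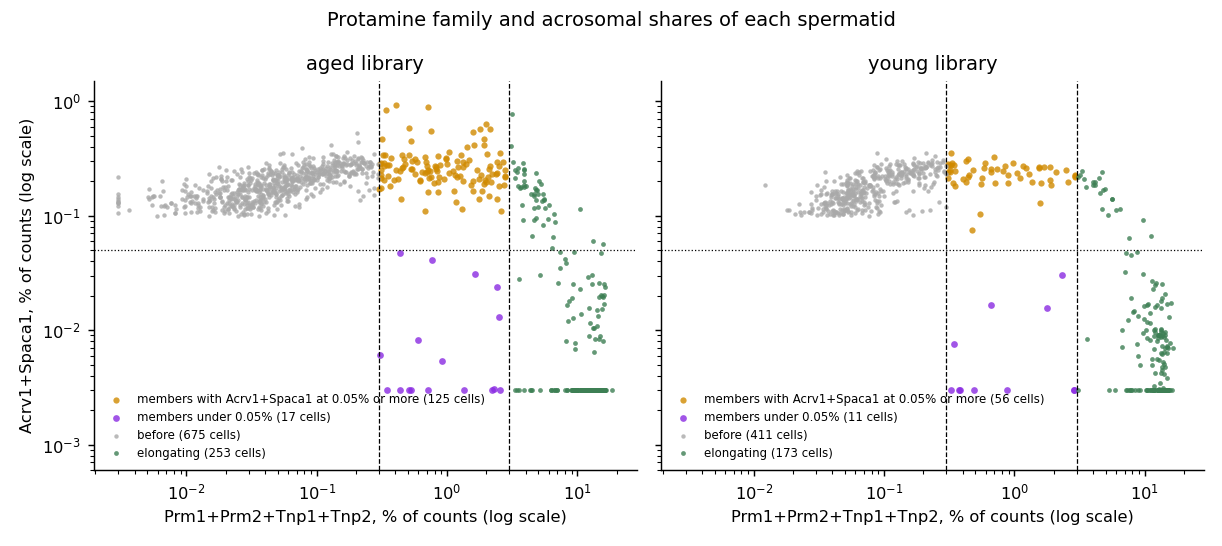
Each point is a member, a spermatid before the members or an elongating spermatid in the aged (left) or young (right) library. Other cells under the Leydig limit are not drawn. The horizontal axis is the share of its counts from Prm1, Prm2, Tnp1 and Tnp2 and the vertical axis the share from Acrv1 and Spaca1. Both are in percent on log scales, with shares below 0.003% drawn at 0.003%. Dashed lines are the limits of 0.3% and 3% and the dotted line is 0.05%. In the drawing, 125 aged and 56 young members lie in a band that continues the spermatids before them, and 17 aged and 11 young members lie below the dotted line. The spermatids before them were chosen at 0.1% or more of Acrv1 and Spaca1, so the lower edge of their part of the band is set by that choice.

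The limits cut a continuous run of cells. In the aged library the nearest cell below the lower limit had 0.297% and the lowest member 0.302%, and the highest member had 2.80% with the next cell above at 3.11%. In the young library these shares were 0.299%, 0.309%, 2.93% and 3.05%. From 0.25% to 0.3% there were 18 aged and 19 young cells, and from 0.3% to 0.35% there were 18 aged and 15 young cells. The upper end was thinner, with 11 aged and 6 young cells from 2.5% to 3% and 10 aged and 5 young cells from 3% to 3.5%.

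Other genes of spermatids were compared with cells of a lower and a higher share. The spermatids before them were taken as cells with under 0.3% of the 4 genes and at least 0.1% of Acrv1 and Spaca1 (675 aged and 411 young), and elongating spermatids as cells with 3% or more of the 4 genes (253 aged and 173 young). Among the 181 members above the gap, Tssk6, a testis-specific kinase needed for histone replacement, stood at 398 CPM in aged and 369 CPM in young members, against 35.4 and 26.3 CPM in the spermatids before. In elongating spermatids it stood at 1525 CPM aged and 1390.4 CPM young. Catsper3, a subunit of the sperm calcium channel, was at 172 CPM in aged and 186 CPM in young members, against 148 and 142 CPM before and 24.6 and 23.3 CPM in elongating cells. Catsper4, another subunit of that channel, was at 94.8 CPM in aged and 117 CPM in young members, against 107 and 91.1 CPM before and 30.7 and 17.1 CPM in elongating cells. Tssk6 RNA was thus higher at each later stage. Catsper3 RNA was highest in the members in both libraries, whereas Catsper4 RNA was highest in the members in the young library and in the spermatids before them in the aged one.

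Members made up 3.397% of aged cells within the depth and mitochondrial limits (142 of 4180, exact Clopper-Pearson 95% interval 2.87 to 3.99) and 2.42% of young ones (67 of 2770, 1.88 to 3.06), a ratio of 1.40. Among spermatids of the 3 stages they were 13.3% in the aged library (142 of 1070, 11.3 to 15.5) and 10.3% in the young library (67 of 651, 8.07 to 12.9), a ratio of 1.29. Among cells under the Leydig limit the order was the other way, 3.90% aged and 4.15% young, a ratio of 0.938. The direction therefore depended on the cells counted. The intervals of the shares overlapped in all 3 cases, but overlap of 2 separate intervals is not a test of their ratio. Intervals on shares and levels cover counting error only.

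Within the members the mix of the 4 RNAs shifted as their sum increased. The sum was cut into 4 steps, from 0.3%, 0.5%, 1% and 2% of counts upward, which held 30, 38, 35 and 22 aged and 21, 15, 14 and 6 young members above the gap. The last 3 young steps hold under 20 cells each. The rule fixed the sum and not the parts of it. Tnp1 made up 46.4%, 40.5%, 35.9% and 33.1% of the counts of the 4 genes along the steps in aged members, and 45.4%, 38.5%, 34.5% and 33.3% in young members. Prm1 took the opposite course, with 20.7%, 24.8%, 28.4% and 30.1% in aged members and 22.3%, 25.4%, 28.4% and 30.0% in young members. The part of Tnp2 stayed between 22.8% and 23.3% in aged members and between 21.5% and 23.0% in young members, while that of Prm2 went up from 10.0% to 13.97% along the aged steps and from 10.9% to 14.5% along the young steps.

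The 2 libraries gave nearly the same mix at each step, and the elongating cells continued it, with Tnp1 at 27.7% aged and 28.4% young and Prm1 at 36.9% aged and 36.2% young. In the first step the exact interval of the Tnp1 part was 44.0% to 48.9% in aged and 43.0% to 47.7% in young members, and in the last step it was 32.0% to 34.3% and 31.8% to 34.9%. The spermatids before the members differed between libraries, with Tnp1 at 58.8% aged and 47.5% young. In the Leydig cells, RNA of the 4 genes was 25.5% Tnp1 in the aged library and 28.6% in the young library, and its part in the difference before the members was not tested. Median totals hardly moved along the steps, from 14889.5 to 13960.5 counts in aged and from 22464 to 23370.5 counts in young members.

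**Figure D2:**
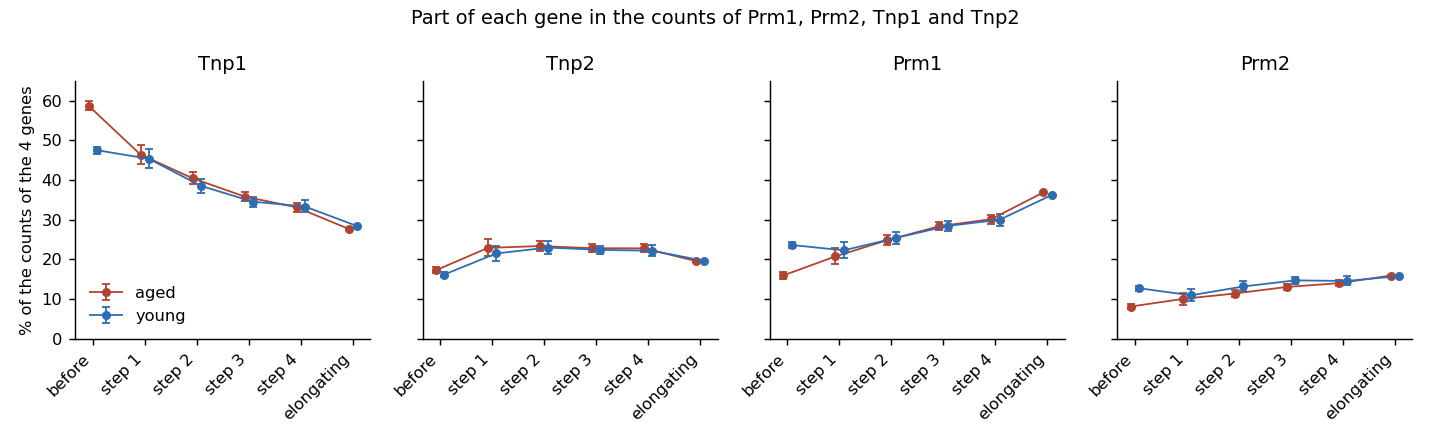
Each panel gives 1 gene's part of the counts of Prm1, Prm2, Tnp1 and Tnp2 together (vertical axis, %) in the spermatids before the members, the 4 steps of the members above the gap and elongating spermatids, aged in red and young in blue; bars are exact Clopper-Pearson 95% intervals. The Tnp1 part ends at 33.1% in aged and 33.3% in young members of the last step, and the Prm1 part at 30.1% and 30.0%.

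Set against the spermatids before them, the members differed in both libraries in many other genes. Of 10964 genes compared, 1198 (10.9%) were at least 2-fold higher in members above the gap in both libraries and 1678 (15.3%) at least 2-fold lower. With all 209 members these were 1155 (10.4%) and 956 (8.64%) of 11062 genes. The rule used this contrast, so the counts describe the stage and nothing is read from them, nor from the counts of single lists below, many of which lie near these 10.9% and 15.3%. Levels here are summed over the cells of a stage and are not scaled for gene length.

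In the list of protamines, transition proteins and spermatid histones, 7 of 10 genes compared were higher in members, 4 of them by the rule. H1fnt, a linker histone of spermatids, stood at 553 CPM in aged and 545 CPM in young members, against 132 and 114 CPM before. Hils1, a linker histone-like protein of elongating nuclei, stood at 1078 and 1109.7 CPM, against 522 and 513 CPM. Prm3, which lies in the same cluster as Prm1 and Prm2, was at 420.0 and 408 CPM, against 181 and 174 CPM. The meiotic linker histone gene Hist1h1t was the one gene of this list that was lower, at 1.67 and 1.41 CPM against 10.1 and 9.30 CPM. The members above the gap held 1792887 summed counts aged and 1420176 young, so these Hist1h1t levels rest on very few counts.

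Of 26 genes that remodel chromatin, 3 were higher and 4 lower, shares close to those of all genes. Cdyl, a chromodomain protein that reads histone methylation, was at 479 CPM in aged and 414 CPM in young members, against 115 and 84.8 CPM before, and Chd5, a remodeller required for histone removal, was at 622 and 526 CPM, against 305 and 234 CPM. The third was Tssk6. On the lower side were Kdm4d, a histone demethylase (32.4 and 22.5 CPM, against 126 and 153 CPM), Smarca5, Dot1l and Hdac3. Of 18 transcription regulators, Fhl5, the testis partner of CREM also called ACT, was higher at 784 and 765 CPM, against 306 and 244 CPM, and the TBP-like factor Tbpl1 (219.8 and 225 CPM, against 629 and 692 CPM) and the demethylase Kdm3a were lower. Crem itself differed less, at 432 and 437 CPM against 551 and 568 CPM.

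Structural genes are given here by the part of the sperm cell they build, with counts to be set beside the 10.9% higher and 15.3% lower of all genes. Of 16 genes of the outer dense fibres and fibrous sheath, 2 were at least 2-fold higher in members, Akap4 (1366 and 1398 CPM, against 641 and 598 CPM) and Oaz3 (2131 and 2125 CPM, against 975 and 907 CPM). Of 31 axonemal and intraflagellar transport genes, 1 was higher, the tektin Tekt5 (327 and 308 CPM, against 59.1 and 50.4 CPM), and 5 were lower (Dnal1, Ift140, Rsph1, Ccdc39 and Ccdc40). The manchette, a microtubule skirt that shapes the head, had 4 of 23 genes higher, Hook1, Spem1, Spata3 and Sun3, and 4 lower. Spem1, needed for removal of cytoplasm from the head, was 10.5-fold higher in aged and 12.8-fold higher in young members. Of 35 acrosome genes, 3 were higher (Sppl2c, Actl9 and Spaca9) and 2 lower (Zpbp2 and Dpy19l2).

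Among 25 genes of mRNA storage and translational delay, Paip2b and Cnbp were higher, and Tarbp2, Pabpc6 and the chromatoid body gene Tdrd7 were lower, again no larger shares than the 10.9% and 15.3% of all genes. Ybx2, whose protein holds stored protamine mRNA, was at 3421 CPM in aged and 3229 CPM in young members, against 4175 and 3829 CPM before. Of 30 chaperone genes, 5 were higher, among them Hspa1l (539.9 and 515 CPM, against 95.1 and 88.6 CPM) and the sperm calreticulin Calr3 (225 and 208 CPM, against 30.4 and 23.3 CPM). Hspa5, the main chaperone of the endoplasmic reticulum, was among the 4 lower ones (55.2 and 52.8 CPM, against 242 and 336 CPM). The glycolysis list had 4 of 21 genes higher, with Pkm at 306 and 261 CPM against 60.0 and 50.8 CPM and the sperm form Gapdhs at 1934 and 1993 CPM against 936 and 895 CPM. No ribosomal protein gene of 73 was higher and 4 were lower.

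X-linked RNA made up a larger share of counts in members. It was 1.47% of counts in aged and 1.43% in young members above the gap, against 0.960% and 0.908% in the spermatids before, and reached 1.65% and 1.69% in elongating cells. Y-linked RNA did not follow, at 0.0574% and 0.0567% in members, against 0.0635% and 0.0662% before. Among X-linked genes, chosen here by their values, Akap4 gave the largest difference, with 725 CPM more in aged and 801 CPM more in young members than before, followed, by the smaller of the differences in the 2 libraries, by the ubiquitin-activating enzyme Uba1 with 199.9 and 196 CPM more. In the aged library alone Tsga8, Tspan6 and 4930570D08Rik were ahead of Uba1, with 242, 213 and 211 CPM more. Of 16 sex-linked spermatid genes compared, 7 were at least 2-fold higher and none lower, among them Cypt4 (855 and 872 CPM, against 357 and 369.6 CPM) and the histone variant H2al1n (42.4 and 38.0 CPM, against 3.88 and 3.55 CPM). H2al1n belongs to a family of near-identical copies whose reads may be split.

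Some genes stood higher in the members than in either neighbour, and most lay in between. Of genes at 100 CPM or more in at least 1 of the 3 stages of the aged library, 2145 of 3002 (71.5%) lay between both neighbours in the 142 members, 602 (20.1%) above both and 255 (8.49%) below both. In the young library 2077 of 3009 (69.0%) lay between, 666 (22.1%) above and 266 (8.84%) below. The 10 genes furthest above both in both libraries are named here after their values were seen. Csrnp1, a nuclear protein, led them, at 364 CPM in aged and 326 CPM in young members above the gap, against 55.5 and 38.7 CPM before and 97.0 and 70.0 CPM in elongating cells. The transcription factor Klf5 was at 224 and 245 CPM, against 76.3 and 55.3 CPM before and 18.0 and 16.2 CPM after. The cohesin subunit Rad21 (141 and 131 CPM), the poly(A) ribonuclease Parn (182 and 130.3 CPM), the TEAD cofactor Vgll3 (166 and 131 CPM) and the ethanolamine kinase Etnk1 (383 and 297 CPM) had the same shape. Lrrd1, Tex29, Mroh5 and Spata31d1d completed the 10.

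Along the 4 steps, genes other than those of the rule kept moving. Of 2056 genes at 100 CPM or more in some step, 197 were higher at every step than at the one before in both libraries and 159 were lower at every step. With all 209 members the counts were 91 and 80 of 2080 genes. Without the last step, which holds 6 young cells above the gap, they were 307 and 284 above the gap and 341 and 329 with all members. Leaving out a step asks for fewer ordered differences, so more genes can meet it. The 10 genes with the largest differences over all members are named here, with levels above the gap. Among those higher at each step were Nudt16l2, at 11.3, 39.3, 65.2 and 138 CPM in aged and 10.2, 39.0, 87.7 and 207 CPM in young members, and Wasf2, an actin regulator, at 18.1, 56.5, 85.6 and 159 CPM and 14.3, 31.7, 104 and 145 CPM. Both were far higher in elongating cells, with Nudt16l2 at 615 CPM aged and 699 CPM young. The ketone body enzymes Oxct2a and Oxct2b, near-identical copies on chromosome 4 whose reads may be shared, increased in the same manner, Oxct2a from 20.4 to 145 CPM along the aged steps and from 34.7 to 207 CPM along the young steps.

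Others of the 10 were the progesterone receptor family member Paqr5, at 63.4, 137, 198 and 224 CPM in aged and 67.5, 75.6, 159.5 and 324 CPM in young members, and Agpat2, Inava, Klk1b8, Ttc24 and the antisense transcript Itpr3os, whose reads may not be told apart from those of Itpr3. Agpat2, an enzyme of phosphatidic acid synthesis, did not keep its order above the gap, at 12.3, 9.76, 74.4 and 124 CPM in young members. Inava is an exception in its later course, since it reached 181 and 166 CPM in the last step but was at 58.0 CPM in aged elongating cells. Osbpl7, an oxysterol-binding protein, met the rule among members above the gap, at 72.5, 200.2, 308 and 438 CPM in aged and 45.0, 129, 215 and 241 CPM in young members, and it too was lower in aged elongating cells, at 106 CPM.

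Genes lower at each step were named in the same way. Lrrc34, a leucine-rich repeat protein, was at 430.4, 287, 116 and 32.6 CPM along the aged steps and 415, 322, 186 and 13.8 CPM along the young steps. Lyar, a nucleolar protein named above the gap only, was at 1246, 999, 679 and 232 CPM and 1235, 1100.5, 665 and 228 CPM. Over all members its last step was higher than the third, at 1491, 1179, 777 and 1104 CPM in aged and 1303, 1103, 656 and 837 CPM in young members. The cAMP phosphodiesterase Pde4a was at 426, 405, 240.5 and 123 CPM and 464, 383, 255 and 103 CPM. Lyar had already been at 2136 CPM in aged and 2142 CPM in young spermatids before the members, whereas Pde4a had been at 389.7 and 322 CPM. The rest of the 10 named over all members were Plin2, the coat protein of lipid droplets, Tnrc18, the splicing regulator Nsrp1, the fibrous sheath interactor Fsip1, Tex15, known for transposon silencing in male germ cells, Lrif1, the iron-sulfur cluster factor Bola3 and the transporter Slco6b1.

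**Figure D3:**
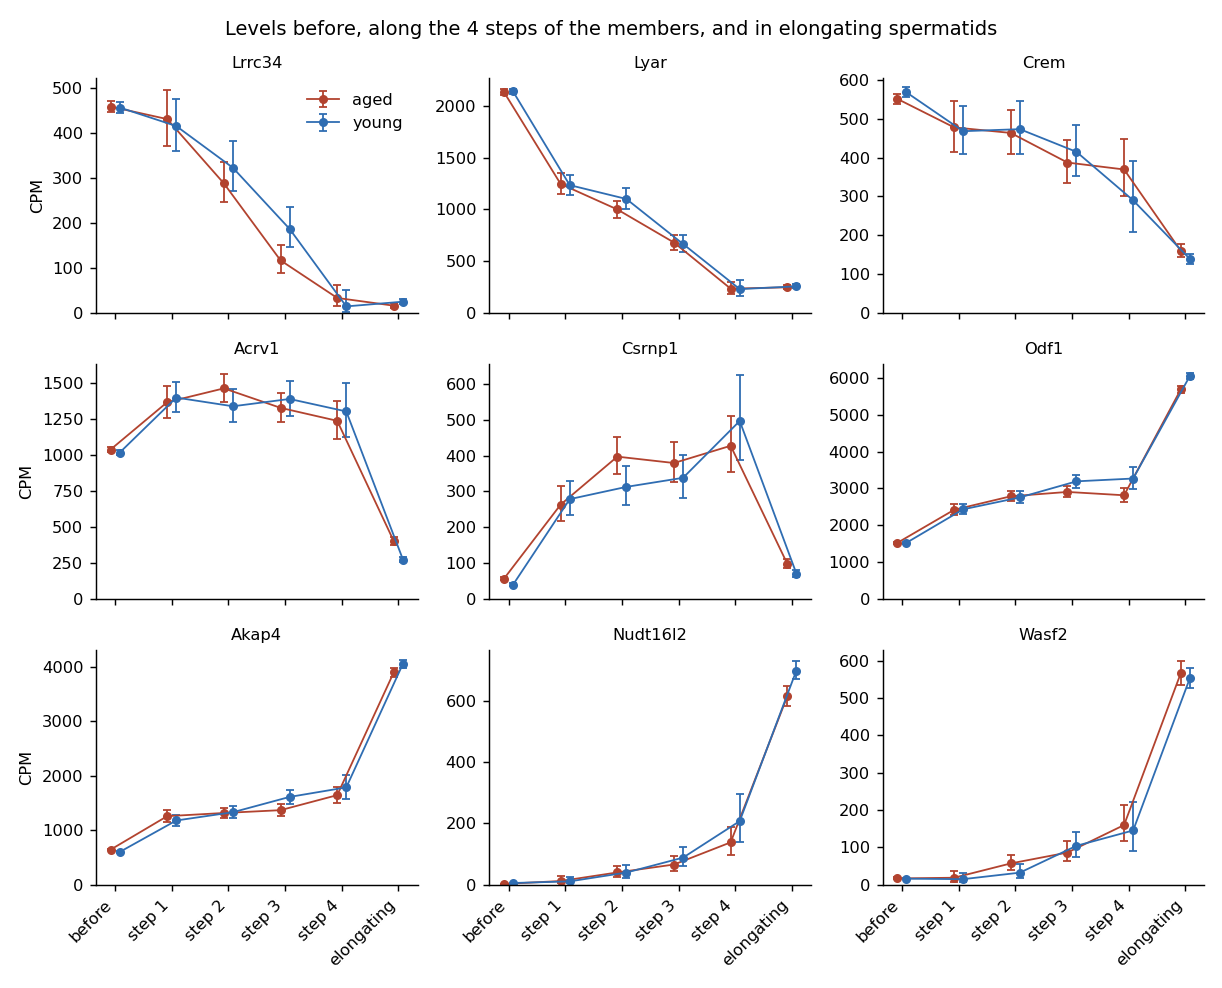
Each panel gives the level of 1 gene (vertical axis, CPM, own scale from 0) in the spermatids before the members, the 4 steps of the members above the gap and elongating spermatids, aged in red and young in blue; bars are exact Poisson 95% intervals. Lrrc34 and Lyar are lower at each step, Nudt16l2 and Wasf2 higher, and Csrnp1 stands higher in the members than at either end.

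Some genes of known spermatid roles also differed between the first and last steps. Brdt, the bromodomain protein that binds acetylated histones before their removal, was at 261 CPM in the first and 170.2 CPM in the last step of aged members, and at 294 and 145 CPM in young members. Tssk6 was at 308 and 561 CPM in the first and last aged steps and 256 and 566 CPM in the young ones. Hspa2, a chaperone of meiotic and later germ cells, was at 1004 and 340.4 CPM and at 791 and 352 CPM. From cell to cell, Spearman's rho of the 4-gene share with the Odf1 share was 0.162 over 125 aged and 0.454 over 56 young members above the gap, and with the Crem share it was -0.273 and -0.224. These shares come from the same totals in each cell, and cells of a library are not replicates.

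Between ages, the RNAs that define the members were close. Tnp1 stood at 4003 CPM in aged and 3650 CPM in young members above the gap. Prm1 stood at 2997 CPM aged and 2752 CPM young, Tnp2 at 2491 and 2239 CPM, and Prm2 at 1384 and 1389 CPM. The rule itself limits how far the sum of these can differ. Acrv1 was at 1369 CPM in aged and 1370.3 CPM in young members, and Spaca1 at 1166 and 1030.2 CPM. Over single aged cells above the gap, Acrv1 ran from 260 over a median of 1346 to 5348 CPM, and over young cells from 375 over 1320 to 2226 CPM, so the young range lay inside the aged one, with close medians.

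Across all genes with at least 50 counts, few were far apart between ages. Among all 209 members, 545 of 7318 genes (7.45%) were at least 1.5-fold higher in the aged library and 314 (4.29%) at least 1.5-fold lower, with a median log2 ratio of 0.02. Among the 181 above the gap, 293 of 6569 (4.46%) were higher and 215 (3.27%) lower, with a median of -0.003. Of the genes called over all members, 219 of 545 higher and 144 of 314 lower were also called above the gap. These calls are by size alone and carry no test, and thinly counted genes pass the limit more easily. Aged members above the gap also had a higher median share of the 4 genes, 0.857% against 0.680% in young members. Levels of other genes moved along that share, and its part in the age differences was not tested. With the 4 steps weighted equally, the ratios of all 24 genes named above the gap stayed within their counting intervals. Those intervals cover counting error only, and the last young step holds 6 cells, so this weighting does not test that part.

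Over all members, Lyz2 was the one gene of the macrophage marker list among the 12 genes furthest lower in the aged library. Fcer1g, a subunit of Fc receptors, had 2 counts in aged and 185 in young members, Laptm5 had 2 and 123, C1qc, a complement component, had 3 and 166, and Lyz2, the lysozyme of myeloid cells, had 11 and 180. Members above the gap leave out the cells below it, among them the 6 young cells highest in macrophage genes when spermatid lists are left out. There Fcer1g had a log2 ratio of -3.80 in place of -6.63 and Laptm5 had -2.77 in place of -6.04. C1qc had -0.99 in place of -5.99. The part of those 6 cells in each difference was not tested. In members above the gap Lyz2 had a log2 ratio of -1.10 in place of -4.39, and Grn, encoding progranulin, had 0.15 in place of -3.55. Atf3, Klf6, Rhob, Ctss, Cbr2 and H2-D1 were the others of the 12, together with Gsn, whose young counts came to 96.9% from 1 cell. Cbr2 changed sign above the gap, where it had 7 aged and 0 young counts.

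Above the gap, the largest difference on the lower side not held by 1 cell was in Aldh1l1, a folate enzyme (chr6:90486427-90600203, GRCm38). It had 7 counts in aged and 100 in young members, or 3.90 and 70.4 CPM, 18.0-fold lower in the aged library (exact conditional 95% interval 8.44 to 46.0). The counts were spread over 7 aged and 30 young cells, with no young cell holding more than 7% of them. The log2 ratio was -4.08 in members, -4.95 in the spermatids before and -3.18 in elongating cells, so the same direction held in all 3 stages. In Leydig cells it stood at 386 CPM aged and 403 CPM young. Member levels came to 1.01% of the Leydig cell level in the aged and 17.5% in the young library, while for Cyp17a1, a defining gene of Leydig cells, they came to 0.191% and 0.535%.

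Gstm1, a glutathione transferase, was also lower, at 46.3 CPM in aged and 195 CPM in young members. Its member levels were 0.165% and 0.706% of those in Leydig cells, proportions near those of Cyp17a1, and the 6 Leydig markers summed to 83.7 CPM in aged and 302 CPM in young members above the gap. Whether free Leydig RNA makes up the Gstm1 difference was not tested. Dcn, a matrix gene of fibroblasts, led the list by ratio, but 98.7% of its 75 young counts were in 1 cell, and Gsn had 97.9% in 1 cell.

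Spam1, the hyaluronidase of the sperm head, was 2.00-fold lower in the aged library (44.6 CPM aged and 89.4 CPM young, 1.503 to 2.69), with counts in 45 aged and 37 young cells. Spam1 stood at 181.5 CPM in aged and 175 CPM in young spermatids before the members, and at 11.9 and 14.3 CPM in elongating cells. Its log2 ratio was 0.05 before the members and -0.26 in elongating cells, and the difference between stages was not tested. The protease gene Prss46 (58.0 and 96.5 CPM), the chaperone gene Dnajb12 (38.5 and 71.8 CPM), the kinase gene Mtor (32.4 and 53.5 CPM) and the mitochondrial import factor gene Grpel1 (37.4 and 60.6 CPM) were lower too. Ide, the insulin-degrading enzyme, was the most abundant of the 12, at 178 CPM in aged and 289 CPM in young members, 1.62-fold lower (1.39 to 1.88), and its log2 ratio before the members was -0.63. Sh3bgrl3, Clec4a2 and Fam228b made up the 12.

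On the higher side, Midn, a nuclear protein linked to proteasomal turnover, was at 65.8 CPM in aged and 21.8 CPM in young members, 3.02-fold higher (2.02 to 4.64). Counts came from 53 aged and 21 young cells. Midn stood at 7.76 CPM in aged and 7.25 CPM in young spermatids before the members, and at 106 and 63.5 CPM in elongating cells. Its log2 ratio was 0.10 before the members and 0.74 in elongating cells. Snord13, a small nucleolar RNA, was at 80.3 and 28.9 CPM, 2.78-fold higher (1.95 to 4.04). Cnih2, which escorts glutamate receptors (93.1 and 36.6 CPM), Celf5, an RNA-binding protein (85.3 and 36.6 CPM), Zfhx2, a zinc finger homeobox factor (77.5 and 35.2 CPM), Pabpc1l, a poly(A)-binding protein known from oocytes (87.0 and 42.2 CPM), and Slc17a7, a glutamate transporter (76.4 and 38.7 CPM), were between 1.97-fold and 2.54-fold higher. Col16a1, Pfn5, Agpat2, Elmo1 and Arf5 were the remaining ones, and over all members Plekha5, Srsf1, Anxa11 and Naa40 took the places of the last 4.

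**Figure D4:**
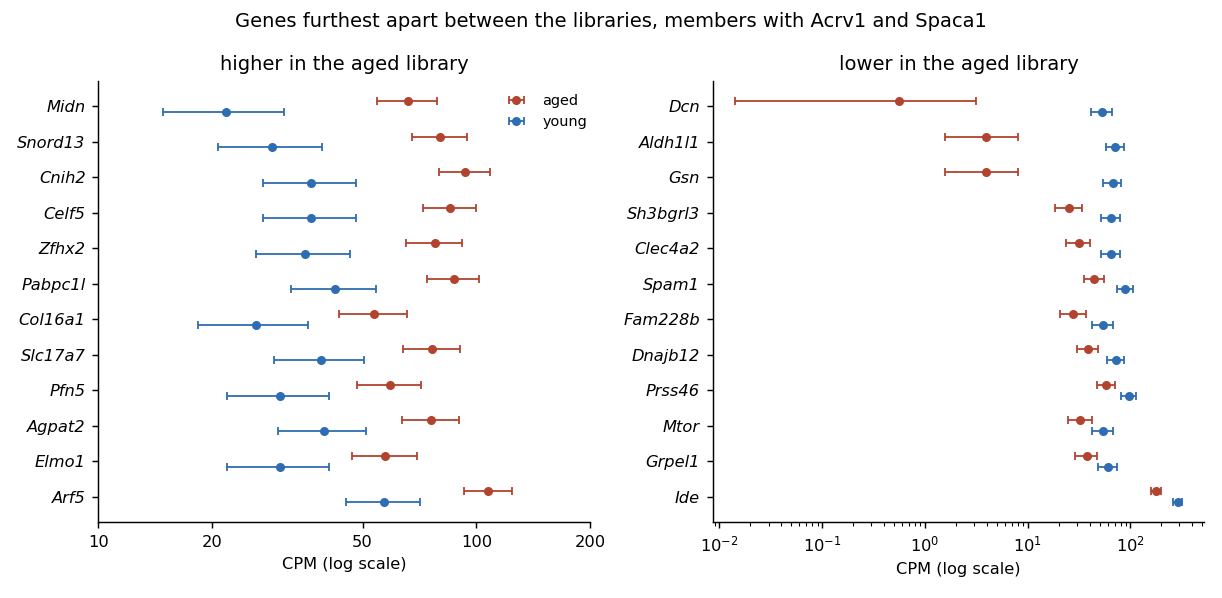
Levels (horizontal axis, CPM, log scale) of the 12 genes furthest higher (left) and the 12 furthest lower (right) in the aged library among members above the gap, aged in red above young in blue, with exact Poisson 95% intervals. Midn stands at 65.8 CPM aged and 21.8 CPM young, and Aldh1l1 at 3.90 CPM aged and 70.4 CPM young; Dcn and Gsn rest on 1 young cell each.

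The gene lists lay near equality between ages. Above the gap, no gene was called among 18 testis-specific kinase and phosphatase genes, 16 outer dense fibre and fibrous sheath genes, 21 manchette genes, 18 mitochondrial sheath genes, 17 CatSper and ion channel genes, 28 ubiquitin and proteasome genes, 26 chaperone genes and 69 ribosomal protein genes. Dusp21, a phosphatase gene, was 1.505-fold higher in aged members as a ratio of CPM (63.6 and 42.2 CPM) and fell just short on the log2 scale used for calls, which adds 0.5 to each count. Of 35 acrosome genes, Spam1 was the one that was lower. These counts stand beside 4.46% higher and 3.27% lower of all 6569 genes measured above the gap. Most of these lists are short, so few calls would be due at those shares, and nothing is read from their absence. Odf1, a core protein of the outer dense fibres, was at 2731 CPM in aged and 2812 CPM in young members. Smcp, of the mitochondrial sheath list, was at 2895 and 2863 CPM. List medians ran from -0.10 (ribosomal proteins) to 0.07 (chromatin remodelling) on the log2 scale, apart from the mitochondrially encoded genes, beside -0.003 over all genes. The ribosomal protein median depended on how cells were weighted: over all members it was -0.06 from summed counts, -0.61 by the mean over cells of each cell's CPM and -0.49 with every cell thinned to the depth limit.

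Among 24 genes of mRNA storage, Paip2b, which restrains poly(A)-binding protein (125.5 and 82.4 CPM), Piwil1, the piRNA-binding protein (50.8 and 28.9 CPM), and the RNA export factor Nxf2 (21.8 and 11.3 CPM) were at least 1.5-fold higher in aged members, and no gene was lower. Over all members 5 of 25 were higher, and 4 of 16 meiosis genes were higher, beside 7.45% of all genes. Above the gap 1 of 12 meiosis genes was higher, Sycp2, beside 4.46% of all genes. Both lists include genes of spermatocytes, whose markers were at 2158 CPM in the 17 aged and 764 CPM in the 11 young cells below the gap. The part of those cells in these calls was not tested. Brwd1, Nbn, Hydin and Slc2a3 were the single higher genes of the transcription, DNA repair, axoneme and glycolysis lists above the gap, and Cdyl2, Dnal1 and Map1lc3b the single lower ones of the chromatin, axoneme and autophagy lists.

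Mitochondrially encoded RNA was lower in the aged library. All 6 genes measured above the gap were at least 1.5-fold lower, with a median log2 ratio of -1.31, and 5 of 6 over all members, with a median of -0.72. The counts were concentrated, since the 5 highest cells held 59.7% of the 1287 aged counts and 65.7% of the 2387 young counts. A member above the gap had a median of 3 such counts in the aged and 12 in the young library, in totals of 15084 and 23003. The aged file also held 875 cells over the mitochondrial limit and the young file 1, and the part of this in the difference was not tested.

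**Figure D5:**
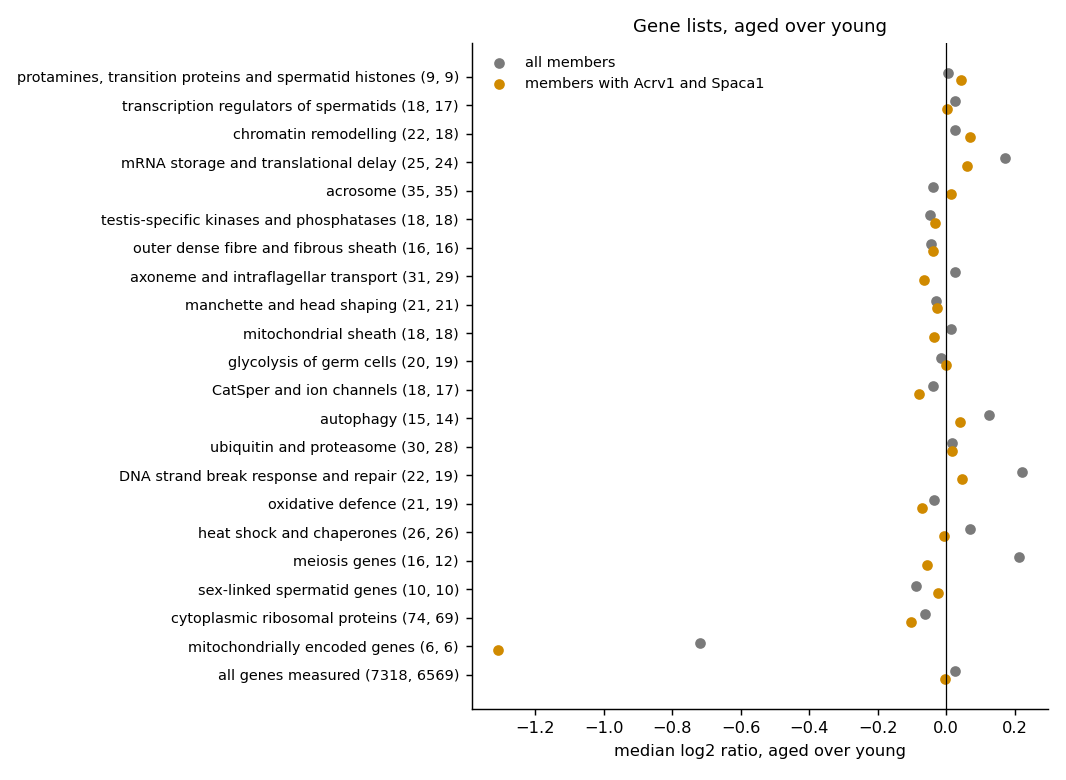
Median log2 ratio, aged over young (horizontal axis), of the measured genes of each list, over all members (grey) and over members above the gap (orange); numbers beside each name are the genes measured in each. Above the gap all lists but the mitochondrially encoded genes lie between -0.10 and 0.07, and mitochondrially encoded genes lie at -1.31.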

How the data were processed

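RNA was measured in single cells of 1 aged and 1 young testis library. What the authors deposited is 1 table of raw, whole-number counts for each library, with cells in rows and genes in columns. The header of the aged table names the BD WTA Multiplex Rhapsody Analysis Pipeline 1.7.1 and a STAR index 2.5.2b, per the file headers, while Cell Ranger 2.11 and mm10 are named per the submitters' processing notes. The method of cell calling, and whether counts are of molecules or reads, are not given in the sources used here.

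The tables share 36245 of 43026 gene columns, and genes missing from 1 of them were set to 0. Coordinates came from GENCODE M21, in which 98.2% of gene columns had 1 match. Doublets were called per library with Scrublet (scanpy 1.11.5, seed 1) on cells with 500 counts and 200 genes or more, and were kept in the main values, since the rule says nothing of them. Levels are CPM, the summed counts of a library's members scaled to 1000000, with Poisson 95% intervals computed exactly (scipy 1.17.1). Log2 ratios used 0.5 added to each count. Between ages, genes with 50 or more counts over both libraries' members were compared and called by size at 1.5-fold. Between stages, a gene needed 50 or more counts over the members and the neighbouring stage together, in each library. It was called by size at 2-fold and could have few counts in the members. With 1 library per age there is no p-value. Calls of known fold were checked on simulated data.

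Named genes between ages are the 12 highest and 12 lowest ratios at 50 CPM or more where higher with a level there of at least 0.5 times that of all other cells, without gene models and mitochondrially encoded, ribosomal protein and globin genes. Along the steps they are the 10 largest differences each way, in the same order at every step in both libraries, at 100 CPM or more. The same rules were repeated above the gap. In lists, genes past 1.5-fold (2-fold between stages) and abundant ones are named. Members and the 21 lists were chosen with earlier results of these data known. Promoters are RefSeq windows (GRCm38.p6). Alternatives varied the cell limits, doublets, depth, scaling, weighting and the count minimum.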

Additional observations from a re-analysis of the deposited data

How the results depend on the processing

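No paired analysis was possible because each age has 1 library. The main count over all members was 545 genes at least 1.5-fold higher and 314 lower in the aged library, and above the gap 293 and 215. Over all members, 327 were higher without cells called doublets, 937 by the mean over cells of each cell's CPM, 324 with cells thinned to the depth limit, 1835 among genes with 10 or more counts, 87 among those with 200 or more, 148 at 2-fold and 293 above the gap. For lower genes the counts were 190 with a lower limit of 0.5%, 598 by the mean over cells, 168 thinned, 1761 and 26 at the 2 count minimums, and 118 at 2-fold. Above the gap, higher genes numbered 164 with a lowest total of 6000 counts, 701 by the mean over cells, 1269 and 50 at the count minimums, and 48 at 2-fold, and lower genes 385, 1315, 17 and 46 by the mean over cells, at the minimums and at 2-fold. The limit of 0.05% that defines the gap was chosen after seeing the data. Grn changed sign there, with a log2 ratio of 0.15, and so did Cbr2, on 7 aged and 0 young counts. A higher or lower count minimum tests more or fewer genes and a higher fold passes fewer; for the others the cause was not tested. The ratio of the members' share of cells ran from 1.11 to 1.75 in 6 alternatives and of spermatids from 1.20 to 1.59 in 8. All lay within the counting interval of the main ratio. The share of cells under the Leydig limit, where the order was the other way, was not varied. Of the log2 ratios of named genes, 259 of 307 values over all members and 265 of 284 above the gap stayed within the gene's counting interval. Most of the others came with cells thinned (13 of 24 genes over all members, 10 of 24 above the gap) and by the mean over cells (13 of 24 and 7 of 24). Some of the values within the interval were fixed in advance. The 2 count minimums leave a gene's ratio unchanged, and a mitochondrial limit of 10% kept the same 142 aged and 67 young members. Of list medians, 250 of 273 values lay within the counting interval of the list's middle gene; the ribosomal protein median was -0.61 by the mean over cells, -0.49 thinned and 0.12 with a lowest total of 6000 counts. Depth limits genes with few counts, and the last young step rests on 6 cells.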
